A study of Homo sapiens with 24 samples.

Results

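The genes described here are 10 regulators of mitotic entry and exit: CDC20, FZR1, UBE2C, UBE2S, PTTG1, FBXO5, CDC25A, CDC25B, CDC25C and WEE1. They were found by symbol, each with 1 row in each of the 4 expression tables, and are 10 of the 13397 symbols that all 4 tables share. RNA-Seq of 24 libraries from 3 established triple-negative breast cancer (TNBC) cell lines was examined, with 3 libraries in each of 8 groups. In Hs578T and in HCC70, both of WT genotype by label, breast cancer stem cells (BCSCs) sorted as CD24-CD44+ and ALDH+ were compared with non-BCSCs, which lacked both markers. In MDA-MB-231, cells with KIF20A sgRNA #1 (KIF20A sg1, labelled KIF20A knockdown) were compared with cells carrying Control sgRNA (sgCtrl). A further pair, MDA-MB-231 by label, set libraries labelled KIF20A overexpression (KIF20A OE) against an empty control vector (EV). Depletion rested on 1 guide, and each line or experiment was a batch of its own by label, so that line and batch cannot be told apart.

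KIF20A itself is a mitotic kinesin of the central spindle, and the study asked which genes mark BCSCs and what KIF20A does in TNBC cells. Entry into mitosis depends on CDK1 bound to cyclin B. WEE1 holds this kinase inactive by phosphorylation, and the CDC25 phosphatases remove the inhibitory phosphate. Exit depends on the anaphase-promoting complex/cyclosome (APC/C), a ubiquitin ligase that acts with the activator CDC20 in mitosis and with FZR1 (CDH1) in late mitosis and G1, marks securin and the cyclins for degradation, and is held back by FBXO5 (EMI1) in S and G2 phase.

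Levels of the sorted lines are given as TPM, which divide reads by transcript length and scale them to the same total in each library, and so allow members to be compared with each other. The depletion table holds reads divided by 1 factor per library, called CPM by the authors and normalised reads here, and the last table holds counts scaled to the depth of each library (CPM). Fold changes are differences of group means of log2(value + 1), which understates changes of low genes. They were tested with limma over all genes with a mean of at least 1, two-sided, with Benjamini-Hochberg adjustment, and a gene is said to be called, higher or lower where the adjusted p was under 0.05. Groups are said not to overlap where every value of one lay above every value of the other.

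Read depth was 15971297 to 51018667 reads per library, and every member was well covered, from 143 reads for UBE2S in one HCC70 library to 18338 reads for CDC20 in one KIF20A sg1 library. KIF20A, the manipulated gene, was listed at 153, 173 and 156 normalised reads in sgCtrl and at 122, 145 and 91.1 in KIF20A sg1. The groups did not overlap, but the log2 fold change of -0.45 (SE 0.16) was not called (limma adjusted p = 0.69), and transcript level does not measure the protein that a guide removes. In EV, KIF20A was at 101, 143 and 124 CPM. The libraries labelled KIF20A OE held 1348, 269 and 896 CPM. These 3 libraries went against their cell line label. All 8 genes that MDA-MB-231 is known to express strongly were lower than in EV (CD44, VIM, AXL, CAV1, NT5E, ANXA1, S100A4 and MSN), and their summed level was 616 to 1101 CPM against 8462 to 10247 CPM in EV. None was listed at 0, but CD44, AXL and NT5E were at 1.23 CPM or less in each of the 3 libraries. They are therefore called libraries labelled KIF20A OE throughout, and a change of cell identity and the effect of KIF20A cannot be told apart in them. In the depletion experiment the same 8 genes summed to 6687 to 7775 in sgCtrl and 6894 to 7758 in KIF20A sg1.

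In the sorted lines, ALDH1A3, an enzyme behind ALDH activity, was 289 ± 8.35 TPM in non-BCSCs against 706 ± 4.32 TPM in BCSCs of Hs578T (SD, n = 3), a log2 fold change of 1.29 (adjusted p = 8.4e-06). In HCC70 it was 87.3 ± 3.94 and 98.4 ± 7.19 TPM and was not called (adjusted p = 0.18). Of the other sort markers, CD24 in HCC70 was 692 ± 30.0 TPM in BCSCs where non-BCSCs had 857 ± 47.7 TPM, without overlap (-0.31, adjusted p = 0.054), and ALDH1A1 there was 362 ± 7.13 TPM in BCSCs beside 331 ± 5.28 TPM, also without overlap (0.13, adjusted p = 0.16). Neither was called. CD44 overlapped between fractions in both lines, as did CD24 in Hs578T, and neither was called there. The mesenchymal genes VIM, FN1, COL1A1 and ZEB1 summed to 10273 to 12339 TPM in Hs578T and 18.5 to 20.5 TPM in HCC70, in the direction of the line labels. The epithelial genes EPCAM and CDH1 lay the other way, at 0.444 and 0.0591 TPM or less in Hs578T and at 182 TPM and 459.7 TPM or more in HCC70, whereas KRT18 was similar in the lines (322 and 376 TPM in non-BCSCs). Within Hs578T, FN1 (-0.31) and COL1A1 (-0.67) were called lower in BCSCs, and KRT18 (0.28) higher. Their part in the results below was not tested. The blood and endothelial markers PTPRC and PECAM1 were at most 3.62 TPM in any library of the sorted lines. In the libraries labelled KIF20A OE, PECAM1 was at 0.689, 35.8 and 0.321 CPM, so that replicate 2 stood apart from the others. EV had 11.8, 6.43 and 9.29 CPM. Near-identical copies of the members, 10 pseudogenes or paralogs over all comparisons, held at most 1.41% of the mean of the member they resemble. In the sorted lines only PTTG2 and PTTG3P were listed, at most 1.09% of PTTG1. Copies of other members could not be examined there. In bulk RNA, fewer cells in a phase of the cycle and less RNA per cell cannot be told apart.

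Promoters are shown first for 4 members that were called in both sorted lines (CDC20, CDC25B, CDC25C and PTTG1), whose transcription is classically late in the cell cycle, and beside them for CDC25A and FBXO5, which were called in neither. The CHR (cell cycle genes homology region) is an element that the DREAM and MuvB complexes bind in genes of G2 and M phase, the CCAAT box is bound by NF-Y, and an E2F site is typical of genes of the G1/S transition. RefSeq promoter windows on GRCh38.p14, of 250 bases before and 50 after a start, were given for 8 members, with 17 windows in all because several members have more than 1 start. Each was searched on both strands for the CHR (TTTGAA or TTCGAA), the CCAAT box (CCAAT) and an E2F site (TTTNNCGC). The 29 matches included 0 overlaps of different motifs. Below, capitals mark every match of the 3 motifs in either orientation. The CDC20 stretch, chr1:43358731-43358980 on the plus strand, and the CDC25A stretch, chr3:48188418-48188667 on the minus strand, are the 250 bases before the start, and neither touches an annotated exon.
CDC20: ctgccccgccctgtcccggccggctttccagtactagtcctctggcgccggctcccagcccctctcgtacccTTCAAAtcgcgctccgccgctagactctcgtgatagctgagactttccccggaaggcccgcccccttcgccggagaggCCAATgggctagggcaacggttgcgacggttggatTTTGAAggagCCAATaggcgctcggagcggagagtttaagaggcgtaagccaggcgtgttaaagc
CDC25A: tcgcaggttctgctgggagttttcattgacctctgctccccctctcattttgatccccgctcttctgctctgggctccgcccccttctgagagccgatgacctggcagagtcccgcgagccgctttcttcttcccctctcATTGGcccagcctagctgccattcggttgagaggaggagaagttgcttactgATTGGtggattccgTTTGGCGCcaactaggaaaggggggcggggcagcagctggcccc
For windows that run into annotated exons, only a short stretch around 1 motif is given. It is chr20:3796260-3796289 (plus) for CDC25B, chr5:138331817-138331846 (minus) for CDC25C, chr6:152983064-152983093 (minus) for FBXO5 and chr5:160421795-160421823 (plus) for PTTG1.
CDC25B: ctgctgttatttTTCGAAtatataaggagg
CDC25C: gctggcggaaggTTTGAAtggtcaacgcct
FBXO5: ttaggcaccaaaTTCAAAgattttaaaagt
PTTG1: gcggaagagCCAATTGGgccgcgagttgt

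In the CDC20 promoter, the CHR at -65 lay between CCAAT boxes at -100 and -55, and another CHR match lay at -178 (positions of the first base, counted from the start). The CHR was at -38 in CDC25B and at -30 in CDC25C, each with an inverted CCAAT box upstream, at -73 and -85. The FBXO5 window held the CHR at -40, downstream of 4 CCAAT boxes. PTTG1 had 3 CCAAT boxes and no CHR, and 2 of them, in opposite orientation, overlap in the stretch shown. CDC25A alone held the E2F site, at -44, with CCAAT boxes at -110 and -58. UBE2S had a CCAAT box only and FZR1 a CHR only, far upstream at -226. A CHR together with a CCAAT box stood in 5 of the 17 windows and in 4 of the 8 members, CDC20, FBXO5, CDC25B and CDC25C. Over all 35116 RefSeq windows, 16.4% held a CHR, 34.6% a CCAAT box, 6.89% an E2F site and 6.38% a CHR with a CCAAT box. The windows of 1 gene can overlap, so that the 2 CDC25C windows with both motifs share the same CHR, and a match is a description of the letters only.

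The first question was whether these regulators differed between BCSCs and non-BCSCs. In Hs578T, 6 of the 10 members were higher in BCSCs (CDC20, FZR1, UBE2C, PTTG1, CDC25B and CDC25C) and 0 were lower, where 2.9% of 13324 genes were called higher and 4.26% lower (7.15% in all). In HCC70, 5 were higher (CDC20, UBE2C, PTTG1, CDC25B and CDC25C) and 0 lower, against 2.28% and 0.552% of 13218 genes (2.83% in all). CDC20, UBE2C, PTTG1, CDC25B and CDC25C were thus called in both lines. Groups did not overlap, with BCSCs higher, for 8 members in Hs578T and 5 in HCC70, against 12.0% and 20.9% of all genes. The median log2 fold change of the members was 0.28 in Hs578T and 0.34 in HCC70, and that of all genes -0.01 and 0.02. CDC25A, FBXO5, UBE2S and WEE1 were called in neither line.

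**Figure D1:**
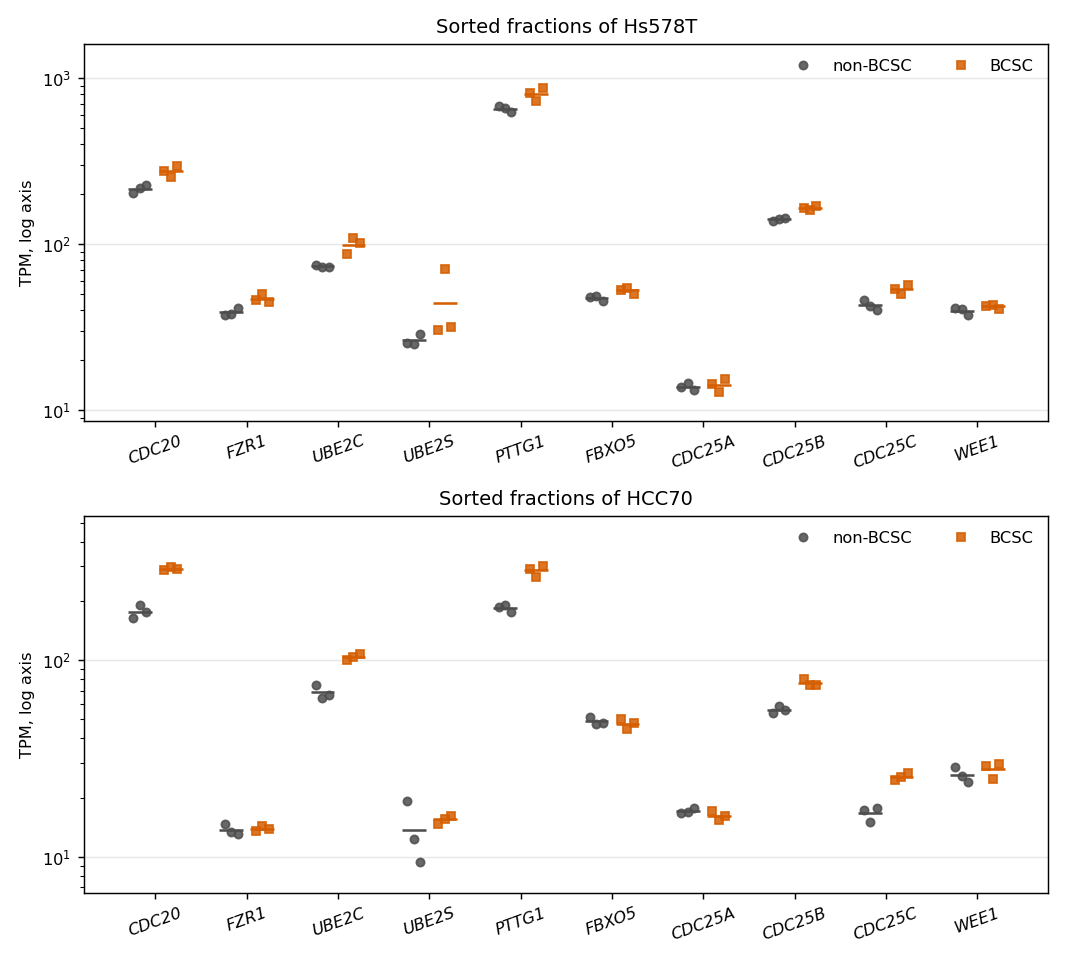
Level of each member in TPM (log axis) in the 3 non-BCSC libraries (circles) and 3 BCSC libraries (squares) of Hs578T and HCC70, with horizontal lines at the group means. CDC20, UBE2C, PTTG1, CDC25B and CDC25C do not overlap between fractions in either line, and UBE2S in Hs578T BCSCs has 1 library at 71.1 TPM and the others at 30.2 and 31.7 TPM.

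Among the APC/C activators, CDC20 (chr1:43358981-43363203) was the member with the larger change. Hs578T non-BCSCs had 204, 219 and 227 TPM, and BCSCs 276, 255 and 298 TPM. All BCSC libraries lay above all non-BCSC libraries, and the log2 fold change was 0.35 (SE 0.07, adjusted p = 0.022). In HCC70 the values were 164, 190.1 and 175 TPM in non-BCSCs against 289, 298 and 291 TPM in BCSCs. The groups were again apart, and the fold change was 0.73 (SE 0.06, adjusted p = 0.0039). FZR1 (chr19:3506311-3538334), the other activator, was at 37.5, 37.9 and 41.5 TPM in Hs578T non-BCSCs and 45.8, 50.0 and 45.1 TPM in BCSCs, without overlap (0.26, SE 0.06, adjusted p = 0.04). In HCC70 it was lower in level and did not separate the fractions, at 14.7, 13.3 and 13.0 TPM in non-BCSCs against 13.5, 14.3 and 13.8 TPM in BCSCs (0.02, adjusted p = 0.89). FZR1 shares 74 exon bases with MFSD12 on the opposite strand, and whether the counting used strand is not stated.

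Of the E2 enzymes that pass ubiquitin to APC/C targets, UBE2C, which starts the chains, separated the fractions, and UBE2S, which extends them, did not do so in HCC70. UBE2C (chr20:45812576-45816957) was at 75.0, 72.5 and 72.7 TPM in Hs578T non-BCSCs and 87.7, 109.6 and 101 TPM in BCSCs (0.43, SE 0.08, adjusted p = 0.018). In HCC70 it was at 75.0, 64.4 and 66.7 TPM in non-BCSCs against 99.9, 104 and 108 TPM in BCSCs (0.59, SE 0.07, adjusted p = 0.0081). UBE2C levels in the non-BCSCs of both lines were thus near each other. UBE2S (chr19:55399745-55407788) was at 25.5, 25.1 and 28.8 TPM in Hs578T non-BCSCs and 30.2, 71.1 and 31.7 TPM in BCSCs. The groups did not overlap, but BCSC replicate 2 stood far above the other libraries. Its fold change of 0.61 had an SE of 0.29 and was not called (adjusted p = 0.26). Without that library it was 0.22 (adjusted p = 0.11). In HCC70 it ranged over 9.35 to 19.2 TPM in non-BCSCs against 14.6 to 16.2 TPM in BCSCs, overlapping, with a fold change of 0.23 (adjusted p = 0.55).

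PTTG1 (chr5:160421855-160428739) encodes securin, the separase inhibitor that the APC/C removes at anaphase. It was the highest member per length in Hs578T, at 678, 658 and 629 TPM in non-BCSCs against 813, 731 and 869 TPM in BCSCs (0.29, SE 0.07, adjusted p = 0.043). In HCC70 it was at 187, 192 and 177 TPM in non-BCSCs against 293, 266 and 303 TPM in BCSCs, again without overlap (0.63, SE 0.07, adjusted p = 0.0059). FBXO5 (chr6:152970519-152983579), the APC/C inhibitor, was at 48.3, 48.9 and 45.2 TPM in Hs578T non-BCSCs and at 53.0, 54.5 and 50.2 TPM in BCSCs. Those groups did not overlap, but the change of 0.14 was not called (SE 0.05, adjusted p = 0.15). The HCC70 fractions overlapped for FBXO5, at 48.8 ± 2.5 TPM in non-BCSCs against 47.5 ± 2.81 TPM in BCSCs (SD, n = 3), with a change of -0.04 (adjusted p = 0.76). FBXO5 shares 157 exon bases with a gene on the opposite strand.

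The CDC25 phosphatases differed among themselves. CDC25B (chr20:3786772-3806121), which acts early at mitotic entry, was at 138, 141 and 144 TPM in Hs578T non-BCSCs and 165, 161 and 169 TPM in BCSCs (0.22, SE 0.04, adjusted p = 0.02). In HCC70 non-BCSCs it was at 54.1, 58.2 and 55.5 TPM, against 80.3, 75.0 and 74.8 TPM in BCSCs (0.45, SE 0.06, adjusted p = 0.0098). Groups were apart in both lines. CDC25C (chr5:138285269-138338355), which activates CDK1 at the entry itself, was at 45.9, 42.6 and 39.9 TPM against 53.9, 50.1 and 57.1 TPM in Hs578T (0.32, SE 0.07, adjusted p = 0.031). The HCC70 values were 17.2, 15.0 and 17.7 TPM against 24.6, 25.5 and 26.7 TPM (0.59, SE 0.07, adjusted p = 0.01). CDC25C shares 293 exon bases with FAM53C on the opposite strand. CDC25A (chr3:48157146-48188417), which acts mainly at the G1/S transition, overlapped between fractions in both lines. It was 13.8 ± 0.588 and 14.2 ± 1.34 TPM in Hs578T (0.03, adjusted p = 0.84) and 17.1 ± 0.569 and 16.2 ± 0.9 TPM in HCC70 (-0.08, adjusted p = 0.52; SD, n = 3).

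WEE1 (chr11:9573670-9593457), the kinase that opposes CDC25, was at 41.0, 40.6 and 37.6 TPM in Hs578T non-BCSCs and 42.7, 43.0 and 40.9 TPM in BCSCs (0.09, SE 0.05, adjusted p = 0.36). In HCC70 it was at 28.7, 25.9 and 24.0 TPM against 28.8, 25.0 and 29.7 TPM (0.08, SE 0.09, adjusted p = 0.61). The fractions overlapped in both lines, and the 95% intervals, -0.03 to 0.2 and -0.12 to 0.29, included 0. WEE1 shares 104 of its 9251 exon bases with another gene on its own strand.

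**Figure D2:**
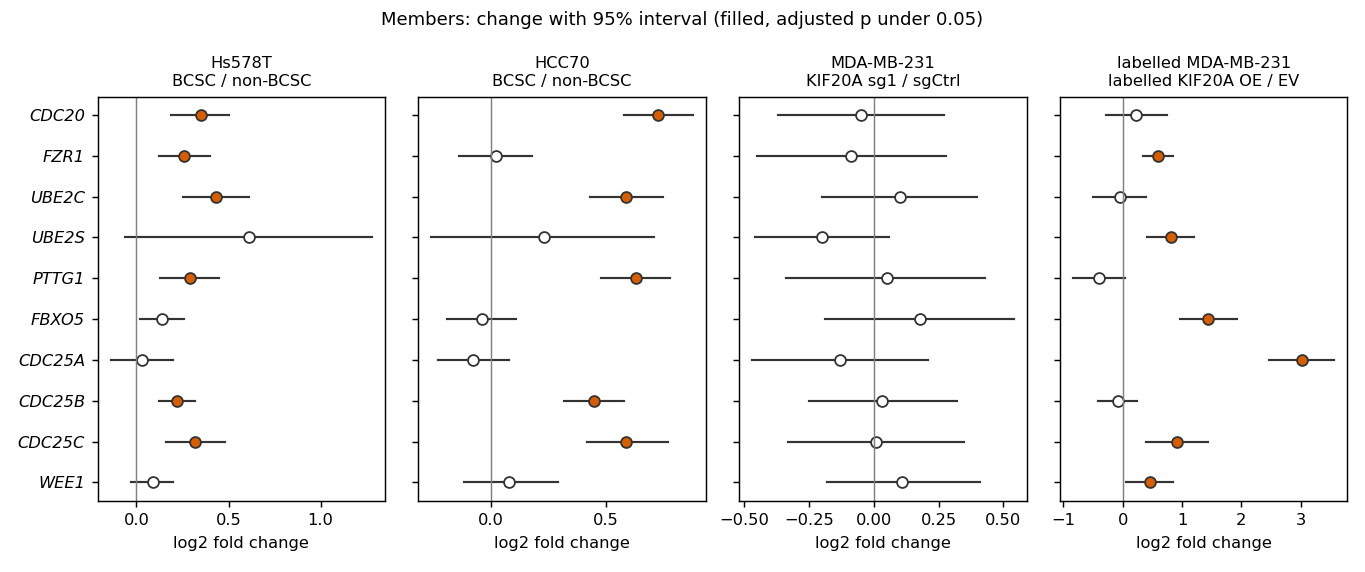
Log2 fold change of each member (on log2(value + 1)) in the 4 comparisons, with 95% intervals and separate horizontal scales; filled points had an adjusted p under 0.05. Filled points number 6 in Hs578T, 5 in HCC70, 0 after KIF20A depletion and 6 under the label KIF20A OE.

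The number of calls in the sorted lines changed when single libraries were left out. The share of all genes called in each of these fits is not given here. Of the 6 calls in Hs578T, 1 was left without non-BCSC replicate 1, 0 without non-BCSC replicate 2, 3 without non-BCSC replicate 3, 1 without BCSC replicate 1, 5 without BCSC replicate 2 and 2 without BCSC replicate 3. Each of the 6 fold changes kept its sign in every one of these fits. CDC20 stayed at 0.29 to 0.4, FZR1 at 0.22 to 0.31 and UBE2C at 0.36 to 0.51. PTTG1 stayed at 0.24 to 0.36, CDC25B at 0.2 to 0.24 and CDC25C at 0.27 to 0.37. By the criteria of the study, an unadjusted p under 0.05 and a change over 0.4, only UBE2C was called in Hs578T, where 1.35% of genes were called higher, and all 5 in HCC70, where 2.01% were. These criteria were applied here to limma on log2(value + 1), whereas the study used DESeq2. In HCC70, 1 of 5 calls (CDC20) was left without BCSC replicate 1, where the adjusted p of UBE2C, PTTG1, CDC25B and CDC25C lay between 0.051 and 0.07, and 4 or 5 without any other library. With 1 library left out, these 5 fold changes stayed between 0.42 (CDC25B) and 0.79 (CDC20). With edgeR and DESeq2 on reads recovered from the values, 6 members were called in Hs578T and 5 in HCC70. All genes called higher were 6.09% by edgeR and 5.53% by DESeq2 in Hs578T, and 3.08% and 4.86% in HCC70.

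By level per length, PTTG1 was the highest member in both Hs578T fractions, followed by CDC20, CDC25B and UBE2C, each apart from its neighbour in every library. CDC25A was the lowest in both, at 13.8 and 14.2 TPM. FBXO5, CDC25C, WEE1 and FZR1 lay close together in Hs578T non-BCSCs, between 37.5 and 48.9 TPM, and neighbours in that order overlapped. In HCC70, PTTG1 and CDC20 overlapped in both fractions, PTTG1 having the higher mean in non-BCSCs (185 and 176 TPM) and CDC20 in BCSCs (292 and 287 TPM). UBE2C, CDC25B and FBXO5 followed in that order, apart from each other. FZR1 and UBE2S were the lowest 2 members of HCC70 in both fractions. Spread among replicates was low for most members, with a median coefficient of variation of 4.47% to 7.16% over the 4 sorted groups, and highest for UBE2S in 3 of the 4 groups, reaching 52.3% in Hs578T BCSCs.

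The difference in the BCSC effect between the lines was tested in a model of the 12 sorted samples. It was larger in HCC70 than in Hs578T for CDC20, by 0.38 on the log2 scale (95% interval 0.17 to 0.59, adjusted p = 0.037), and for 0 of the other 9 members was it called, where 7.11% of 11668 genes were called. PTTG1 (0.33, 95% interval 0.12 to 0.55, adjusted p = 0.061), CDC25B (0.23, 0.09 to 0.37, adjusted p = 0.057) and CDC25C (0.27, 0.05 to 0.5, adjusted p = 0.12) had intervals above 0 but did not pass. PTTG1 and CDC25B passed in 2 of the 12 fits each. For UBE2C the interval of the difference was -0.07 to 0.4 (adjusted p = 0.35). FZR1, called in Hs578T and not in HCC70, had a difference of -0.24 (-0.43 to -0.05, adjusted p = 0.11), so that its effect was not shown to differ between lines. The CDC20 call was lost when values were rescaled by the median of ratios (0.33, adjusted p = 0.083) or to equal quantiles (0.34, adjusted p = 0.056), and with the replicate number as a block (0.38, adjusted p = 0.059). Among 12 fits that each left out 1 library it was kept in 3, without Hs578T non-BCSC replicate 1, Hs578T BCSC replicate 3 or HCC70 non-BCSC replicate 2. Without any one of the other libraries the CDC20 difference was 0.33 to 0.39, with an adjusted p of 0.053 to 0.094. The table of each line was normalised separately, so only differences within a line entered this comparison.

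**Figure D3:**
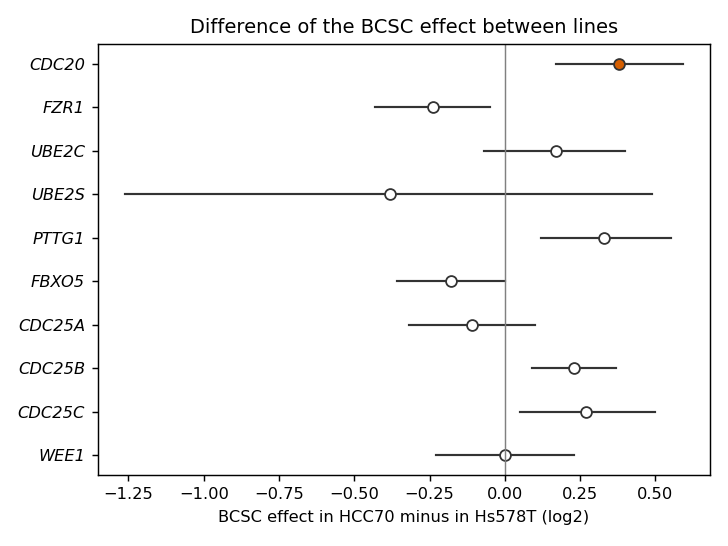
Difference of the BCSC effect, HCC70 minus Hs578T, for each member (log2 scale) with its 95% interval; the filled point had an adjusted p under 0.05. CDC20 at 0.38 is the filled point, and FZR1, FBXO5, CDC25A and UBE2S lie below 0.

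Genes whose levels followed CDC20 most closely over the 12 sorted samples, after centring each line on its mean, were FOXM1 (Pearson's r = 0.994), IQGAP3 (0.991), KIF18B (0.988), CDC25B (0.984) and KIF20A (0.984) among 11668 genes. PTTG1 (0.953), CDC25C (0.905) and UBE2C (0.868) were also high. FZR1 (0.359), WEE1 (0.314), UBE2S (0.268), FBXO5 (-0.01) and CDC25A (-0.157) were not. These are descriptions over samples that share libraries, scaling and the same 2 fractions.

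Other genes of the pathway were described in 5 lists. Of 20 APC/C substrates, 13 were higher in BCSCs and 0 lower in Hs578T, and 13 and 0 in HCC70, with medians of 0.3 and 0.5. Of all genes, 2.9% were called higher and 4.26% lower in Hs578T, and 2.28% and 0.552% in HCC70. PLK1, a mitotic kinase, had the largest change of its list in HCC70, from 91.7 to 161 TPM (0.81, adjusted p = 0.0016), and AURKA (0.77) and CCNB1, cyclin B1 (0.78), were near it. In Hs578T, NEK2 (0.47), PLK1 (0.41) and AURKA (0.41) had the smallest p. GMNN, CDC6, SKP2, RRM2 and TK1 were called in neither line. Of these substrates, AURKA, PLK1 and CCNB1 are, like CDC20, genes of G2 and M phase. Without HCC70 BCSC replicate 1, the 13 calls of HCC70 became 5.

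The list of 8 spindle checkpoint genes holds components that keep CDC20 from activating the APC/C, such as BUB1B and MAD2L1, and also MAD2L1BP and TRIP13, which act together to take the inhibitory complex apart. Of these genes, BUB1 (0.25 and 0.62) and BUB1B (0.28 and 0.38) were higher in both lines, and MAD2L1BP (0.37) in HCC70. TTK (0.26, adjusted p = 0.059) did not pass in Hs578T, but was called there by edgeR and DESeq2. By either method, 6 checkpoint genes were higher in Hs578T and 4 in HCC70. Of all genes, 6.09% (edgeR) and 5.53% (DESeq2) were higher in Hs578T, and 3.08% and 4.86% in HCC70. By limma, 3 of 14 regulators of CDK1 were higher in Hs578T, CDK1 itself (0.35), CKS2 (0.3) and BORA (0.28). In HCC70 these were 2, CKS2 (0.43) and BORA (0.34). CDK1 had a change of 0.29 in HCC70 (adjusted p = 0.066), and was called there by edgeR and DESeq2. Of 14 core subunits of the APC/C, limma called only ANAPC5, lower in Hs578T (-0.21, adjusted p = 0.048). It called 0 in HCC70, where ANAPC2 had the smallest p (-0.34, adjusted p = 0.061). ANAPC2 was called lower there by edgeR, by DESeq2 and with a minimum mean of 5. The ANAPC5 call was lost with a pseudocount of 0.1, with no minimum (adjusted p = 0.066), with the replicate block (adjusted p = 0.1) and in 5 of 6 fits that left out 1 library, all but that without BCSC replicate 3 (adjusted p up to 0.19). Of 20 genes of the G1/S transition, 0 were called in either line, with medians of 0.05 in Hs578T and -0.09 in HCC70. Of all genes, 2.9% were called higher and 4.26% lower in Hs578T, and 2.28% and 0.552% in HCC70. At those shares a list of 14 or 20 genes would hold few or no calls. At an unadjusted p under 0.05 the G1/S genes numbered 2 and 5, and the share of all genes at that level is not given here. Of the 20, 16 lay above 0 in Hs578T, and 14 lay below 0 in HCC70. With edgeR the G1/S calls were 2 higher in Hs578T and 3 lower in HCC70, and with DESeq2 2 higher and 4 lower. The shares of all genes called lower by edgeR and DESeq2 are not given here, so the lower calls cannot be set against them. The 3 checkpoint calls of HCC70 became 1 in 5 of 6 fits that left out 1 library, all but that without non-BCSC replicate 1, which alone kept BUB1B and MAD2L1BP. The 2 calls of CDK1 regulators in HCC70 became 0 without BCSC replicate 1, 3 without non-BCSC replicate 1 and 1 without any other library. In Hs578T the checkpoint calls became 0 without non-BCSC replicate 2 or BCSC replicate 1 and 1 without non-BCSC replicate 1, and those of CDK1 regulators became 1 without non-BCSC replicate 2.

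**Figure D4:**
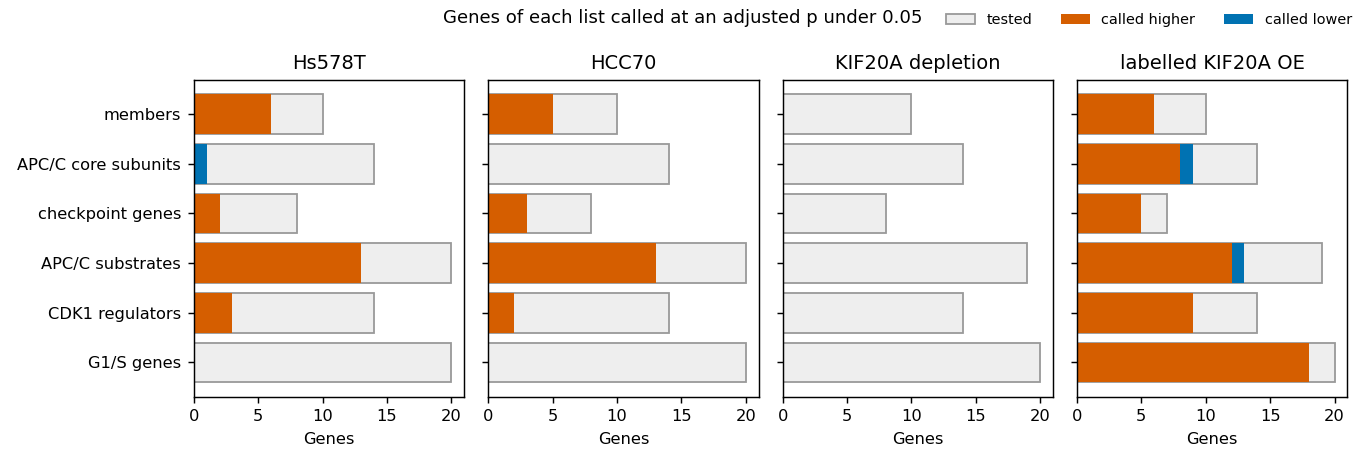
Number of genes tested (pale bars), called higher (orange) and called lower (blue) in the member list and 5 pathway lists, in each of the 4 comparisons, at an adjusted p under 0.05. APC/C substrates have 13 of 20 called higher in each sorted line, G1/S genes have 0 there and 18 of 20 in the libraries labelled KIF20A OE, and no gene is called after KIF20A depletion.

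The second question was whether KIF20A depletion in MDA-MB-231 moved these regulators. None of the 10 members was called (limma), where 0.0% of 12852 genes were. The members had 0 genes with an unadjusted p under 0.05, where 7.0% of all genes had one, and 0 were called by edgeR or DESeq2, the latter calling 16 genes (0.124%) in all. The 95% intervals given below show what sizes of change these libraries leave possible.

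CDC20 was at 304, 367 and 324 normalised reads in sgCtrl and at 326, 369.7 and 270.4 in KIF20A sg1 (-0.05, 95% interval -0.37 to 0.27). UBE2S was the 1 member whose groups did not overlap, at 307, 311 and 287 in sgCtrl and 266, 280.3 and 242 in KIF20A sg1. Its change of -0.2 had an interval of -0.46 to 0.06 (adjusted p = 0.71), and groups were separated for 13.0% of all genes. FBXO5 had the highest value, 0.18 (-0.19 to 0.54), with 47.3, 46.8 and 68.9 against 59.8, 68.0 and 54.6. FZR1 (-0.09, -0.45 to 0.28), CDC25A (-0.13, -0.47 to 0.21) and CDC25B (0.03, -0.25 to 0.32) lay between these. So did CDC25C (0.01, -0.33 to 0.35), PTTG1 (0.05, -0.34 to 0.43), UBE2C (0.1, -0.2 to 0.4) and WEE1 (0.11, -0.18 to 0.41). The groups of these members overlapped.

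In the same experiment, the pathway lists had 0 genes called by limma, edgeR or DESeq2, and 0 APC/C core subunits, checkpoint genes and substrates and 2 CDK1 regulators had an unadjusted p under 0.05. The 20 G1/S genes had a median of -0.19, with 19 below 0. An unadjusted p under 0.05 was found for 5 of them and for 7.0% of all genes. For 9 of the G1/S genes KIF20A sg1 lay wholly below sgCtrl. Groups were separated in either direction for 13.0% of all genes, and the share separated downward alone was not computed. UNG, a uracil-DNA glycosylase, was at 123, 108 and 118 in sgCtrl and 82.1, 84.9 and 87.8 in KIF20A sg1 (-0.45, adjusted p = 0.69). BORA, an activator of AURKA, had 0.56 (adjusted p = 0.69), and its groups did not overlap, and PKMYT1, the WEE1-like kinase at membranes, had -0.31. The APC/C substrates had a median of 0.16 and the checkpoint genes of 0.19.

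**Figure D5:**
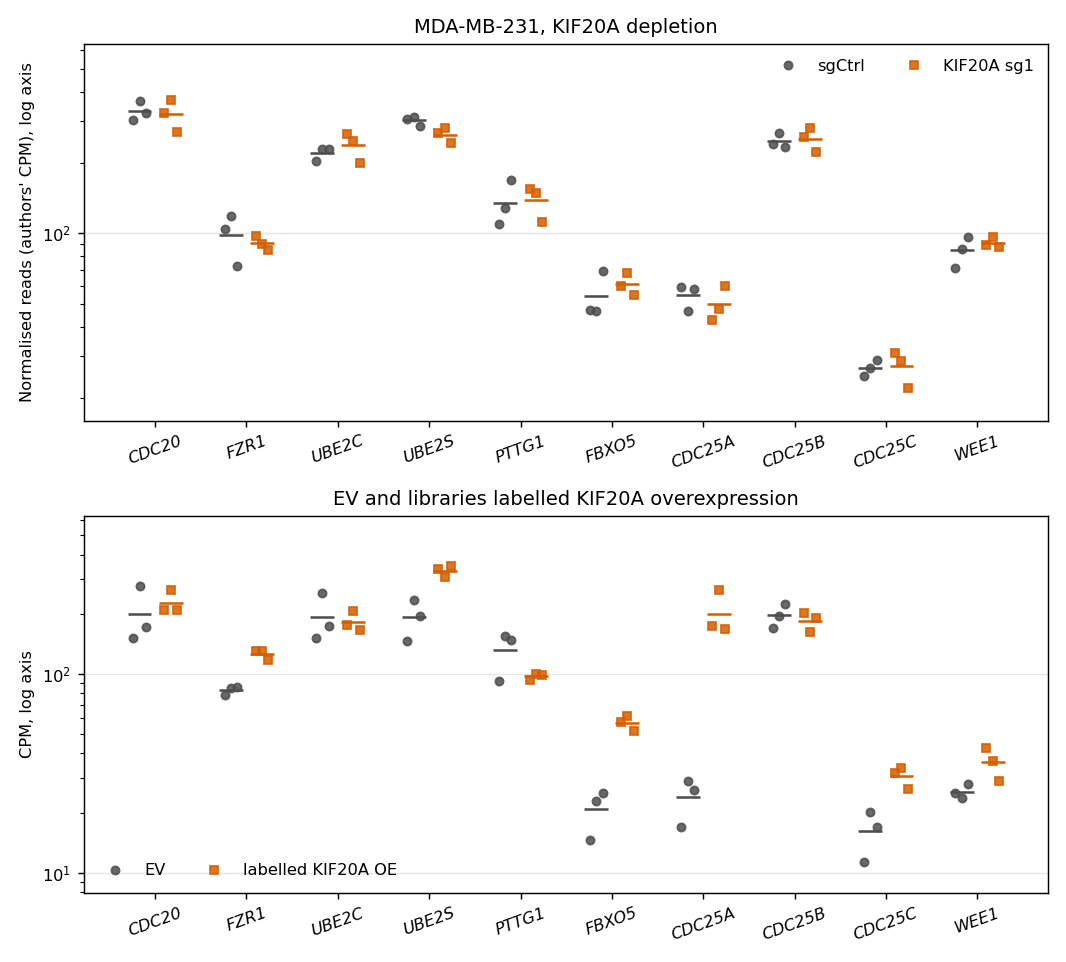
Level of each member (log axis) in the libraries of MDA-MB-231 by label, as normalised reads in the depletion experiment and CPM in the other, where those labelled KIF20A OE lack markers of that line, with circles for the controls (sgCtrl, EV), squares for KIF20A sg1 or labelled KIF20A OE, and lines at group means. All members but UBE2S overlap after depletion, and CDC25A in the libraries labelled KIF20A OE lies at 168 to 265 CPM against 17.1 to 28.9 CPM in EV.

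The third question concerned KIF20A overexpression, as far as the labels give it. In the libraries labelled KIF20A OE, 6 members were called higher (CDC25A, FBXO5, CDC25C, UBE2S, FZR1 and WEE1) and 0 lower, in a comparison where 46.2% of 15265 genes were called higher and 23.4% lower (69.7% in all). The median change of all genes was 0.37, and 0.03 once values were rescaled by the median of ratios, when 33.8% were called higher and 33.0% lower. On that scale 4 members were higher (CDC25A, FBXO5, CDC25C and UBE2S) and 2 lower (PTTG1 and CDC25B). On recovered reads, edgeR called 2 higher and 2 lower (33.4% and 31.7% of all genes), and DESeq2 5 higher and 2 lower (34.3% and 32.4%). The count of members called was thus near that of all genes. Groups did not overlap, with higher values in the libraries labelled KIF20A OE, for 6 members and for 48.9% of all genes.

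CDC25A was at 17.1, 28.9 and 26.2 CPM in EV against 174, 265 and 168 CPM in those labelled KIF20A OE. This was the largest change of a member in any comparison, 3.02 (SE 0.24, adjusted p = 1.2e-05), and it stayed between 2.66 and 3.16 in every alternative. FBXO5 followed, at 14.6, 22.9 and 25.3 CPM against 57.7, 61.9 and 51.7 CPM (1.44, SE 0.21, adjusted p = 0.00039), and remained called in every alternative, at 1.08 to 1.59. These 2 members were called in neither sorted line. CDC25C was at 11.3, 20.2 and 17.1 CPM against 31.7, 33.9 and 26.5 CPM (0.91, SE 0.22, adjusted p = 0.0063), and UBE2S at 147, 235 and 196 CPM against 309.9 to 350.4 CPM (0.81, SE 0.17, adjusted p = 0.0031). With edgeR, CDC25C (0.58, adjusted p = 0.053) and UBE2S (0.44, adjusted p = 0.052) were not called.

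FZR1 was at 78.7, 85.3 and 86.0 CPM in EV against 131, 130.4 and 118 CPM in the KIF20A OE label group, a change of 0.59 (SE 0.11, adjusted p = 0.0013). After rescaling by the median of ratios it was 0.23 and not called (adjusted p = 0.075). WEE1, at 25.2, 23.8 and 27.9 against 42.6, 36.5 and 28.9 CPM (0.46, adjusted p = 0.041), was 0.1 on that scale, and its call was lost without EV replicate 1, without EV replicate 2, without KIF20A OE replicate 1 and without KIF20A OE replicate 2, where its change was 0.33 to 0.45 and its adjusted p 0.084 to 0.14. FZR1 did not overlap between the groups, nor did WEE1, whose lowest library labelled KIF20A OE (28.9 CPM) lay just above the highest of EV (27.9 CPM).

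Of the other members, PTTG1 was at 92.9, 155 and 149 CPM in EV against 93.6, 100.3 and 98.8 CPM in those labelled KIF20A OE, which overlapped only through EV replicate 1. Its change was -0.4 (adjusted p = 0.096), -0.76 and called lower after rescaling, and -0.63 and called lower without EV replicate 1. CDC25B, at 169.9, 197 and 226 against 204, 163 and 192 CPM (-0.08), was likewise lower only on the rescaled values (-0.45) and with edgeR (-0.44) and DESeq2 (-0.43). CDC20, at 152, 279 and 173 against 211, 264 and 211 CPM, had 0.23 (adjusted p = 0.38) as deposited and -0.14 after rescaling, so that no direction could be given, though without EV replicate 2 it was 0.49 and called higher (adjusted p = 0.022). UBE2C overlapped too, at 194 ± 54.3 and 184 ± 21.8 CPM (SD, n = 3; -0.05).

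The 20 G1/S genes had 18 called higher and 0 lower in these libraries, with a median of 1.17 (14 and 0 after rescaling, median 0.81), led by GINS2 (2.41), MCM2 (2.14) and CDT1 (2.5), which take part in replication origin licensing and firing. APC/C substrates had 12 higher and 1 lower of 19 tested (7 and 1 after rescaling). HMMR rose from 10.2 to 87.2 CPM (3.07) and SKP2 from 10.8 to 60.9 CPM (2.44), and ANLN, a contractile ring protein, fell from 464 to 156 CPM (-1.56). Checkpoint genes had 5 higher of 7 tested, among them TRIP13 (1.52), MAD2L1 (1.44) and TTK (0.86), and 3 higher and 2 lower after rescaling. CDK1 regulators had 9 higher of 14, with PKMYT1 (1.9), CHEK2 (1.61) and ENSA (1.17), and 4 higher and 1 lower after rescaling. APC/C core subunits had 8 higher and 1 lower (CDC16, -1.02) of 14, led by ANAPC1 (1.1), CDC23 (0.84) and ANAPC11 (0.68), and 3 higher and 5 lower after rescaling, so that their direction depended on the scale. Of all genes, 46.2% were called higher as deposited and 33.8% after rescaling, and the rescaled calls of APC/C substrates, CDK1 regulators and core subunits were near or below that share. With 1 library left out, the calls in both directions fell to 5 for core subunits without KIF20A OE replicate 1 or 2, to 5 for CDK1 regulators without KIF20A OE replicate 1, and to 3 for checkpoint genes without EV replicate 1 or KIF20A OE replicate 3.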

How the data were processed

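Per the labels and the methods of the study, poly(A) RNA from biological triplicates was made into TruSeq Stranded libraries, aligned to GRCh38 with HISAT2 2.0.5 and counted with featureCounts 1.5.0-p3. The annotation and the use of strand in counting are not given in the sources used here. The authors deposited TPM for the sorted Hs578T and HCC70 cells, a normalised read signal that they named CPM for KIF20A depletion (columns summing to 977394 to 1028621), and CPM for KIF20A overexpression. The rows held no comparisons of the authors, and 0 sample columns were left unused. The tables hold no count columns, but whole reads fitted 100.0% of genes in the sorted lines, within 0.0002 reads plus rounding. They fitted 100.0% of values elsewhere, within 0.05 reads. Reads recovered from TPM are fixed only up to a common factor, and 531 genes were multiplied after the lines were compared. This gave 15971297 to 51018667 reads per library and let edgeR and DESeq2 be run on recovered reads.

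Where a gene's mean in the 6 samples was 1 or more, it was tested with limma 3.58.1 (R 4.3.3, trend) on log2(value + 1), within each table and two-sided, with Benjamini-Hochberg adjustment over all genes and a threshold of 0.05. The BCSC effect was compared between lines by an interaction term over 12 samples. On simulated data, 200 of 200 changed genes were recovered for Hs578T and 194 of 198 for HCC70. For depletion and for overexpression, 200 of 200 were recovered. False calls were 6.98%, 5.37%, 7.41% and 4.31% in that order. Recovery of changes as small as those of the members in the sorted lines and after depletion was not tested. Every simulated gene had the same dispersion, and only genes with many reads were changed. The median coefficient of variation of the members ran from 4.47% in Hs578T non-BCSCs to 25.7% in EV. Recovery at a spread as wide as that of EV was not tested. Alternatives were a pseudocount of 0.1, no minimum or a minimum mean of 5, rescaling by the median of ratios, quantile normalisation, edgeR 4.0.16, DESeq2 1.42.0, a replicate block, each library left out, and an unadjusted p under 0.05 with a change over 0.4. Same-numbered libraries did not deviate together (r of -0.16 to 0.19, with 1 of 12 over 0.1), so the numbers were not taken to pair samples. An exact permutation test of 3 against 3 cannot go below p = 0.1. Positions are from GENCODE 44 on GRCh38, and promoter windows from RefSeq on GRCh38.p14. UBE2C and WEE1 had no window. Named list genes were the 3 of the smallest p in each list and comparison and the 5 of the highest correlation with CDC20, and other list genes named were chosen after their values were seen. The members and lists were chosen with earlier results of these data known.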

Additional observations from a re-analysis of the deposited data

Results flagged for a closer look

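By the interaction term of the 12 sorted samples, the BCSC effect was called different between lines for 1 of 10 members, CDC20. It was 0.38 larger on the log2 scale in HCC70 than in Hs578T (limma adjusted p = 0.037). Of 11668 genes, 7.11% were called. The CDC20 call was kept in 3 of 12 fits that each left out 1 library. It was lost after the median of ratios, after quantile normalisation and with the replicate block. KIF20A, which the study picked through these same sorted cells, was called higher in BCSCs of both lines. It went from 217 to 297 TPM in Hs578T (0.45, limma adjusted p = 0.0072). In HCC70 it went from 71.4 to 125 TPM (0.8, adjusted p = 0.0016). In each line this was kept in 6 of 6 fits that left out 1 library. The KIF20A difference between the lines was 0.35 (adjusted p = 0.029). That call was kept in 4 of 12 such fits (adjusted p up to 0.077) and lost with the replicate block (adjusted p = 0.072). Among the genes named from the pathway lists, PLK1 differed by 0.4 and BUB1 by 0.37 (adjusted p = 0.0062 each), AURKA by 0.36 (adjusted p = 0.013) and CCNB1 by 0.31 (adjusted p = 0.043), each with the larger effect in HCC70. ANAPC5, the APC/C subunit, differed by 0.37 (adjusted p = 0.014), with -0.21 in Hs578T and 0.16 in HCC70. PLK1, BUB1, AURKA and ANAPC5 kept this call in 12 of 12 fits that each left out 1 library, and ANAPC5 lost it with the block (adjusted p = 0.053). CCNB1 kept it in 3 of 12, those without Hs578T BCSC replicate 3, HCC70 non-BCSC replicate 1 or HCC70 BCSC replicate 2, and lost it with the block (adjusted p = 0.11). KIF20A kept the call of a difference between lines without Hs578T BCSC replicate 3, HCC70 non-BCSC replicate 2, HCC70 non-BCSC replicate 3 or HCC70 BCSC replicate 2. The lines were separate batches by label, and the part of batch in these differences was not tested.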

How the results depend on the processing

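Of the 10 members, 6 were called in Hs578T. The count was 3 with no minimum, 3 with the replicate block, 1 by the criteria of the study (an unadjusted p under 0.05 with a change over 0.4), and 0 to 5 with 1 library left out. In HCC70 it was 5, and 1 to 5 with 1 library left out. Of all genes, 2.9% were called higher in Hs578T and 2.28% in HCC70 in the main fit. By the criteria of the study, 1.35% were called higher in Hs578T. The shares of all genes with no minimum, with the block or with 1 library left out are not given here. A loss of calls among the members therefore cannot be set against that of all genes. The block changed the members' calls in the libraries labelled KIF20A OE only for WEE1 (adjusted p = 0.062), and none in HCC70 or after depletion. The 1 member that differed between the lines became 2 with no minimum, 0 after the median of ratios and 0 after quantile normalisation. The count was 2 by edgeR, 3 by DESeq2, 0 with the block and 0 to 3 with 1 library left out. It was 0 by the criteria of the study, which describes no test of this difference. Of all genes, 7.11% were called in the main fit of this difference, and the shares under the alternatives are not given here. Same-numbered libraries share only a number here. Each correlated best with its own number between EV and the libraries labelled KIF20A OE (r of 0.01 to 0.06), a hint from the data and not from the design.

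Changes of sign touched only values that limma did not call on all libraries as deposited. Of these, CDC20 and CDC25B in the libraries labelled KIF20A OE were called in some alternatives, as given above. FZR1 in HCC70 was -0.01 after the median of ratios, -0.004 by edgeR and -0.01 by DESeq2. CDC20 in the libraries labelled KIF20A OE was -0.14, -0.17 and -0.16, and UBE2C there was 0.03 after quantile normalisation. With 1 library left out, ranges crossed 0 for CDC25A (-0.03 to 0.1) and ANAPC16 (-0.09 to 0.001) in Hs578T, and for FZR1 (-0.01 to 0.07) and FBXO5 (-0.08 to 0.01) in HCC70. They did so after depletion for CDC20 (-0.16 to 0.07), FZR1 (-0.29 to 0.06), PTTG1 (-0.09 to 0.21), CDC25B (-0.04 to 0.13), CDC25C (-0.08 to 0.15) and WEE1 (-0.01 to 0.21). They did so in the libraries labelled KIF20A OE for UBE2C (-0.21 to 0.17) and CDC25B (-0.19 to 0.02), and between the lines for UBE2S (-0.61 to 0.01) and WEE1 (-0.06 to 0.07). The causes were not tested. For members that were not called, the intervals, where given above, show what sizes of change 3 libraries a group leave possible.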
